A study of Schizosaccharomyces pombe with 16 samples.

Results

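S7A is a fission yeast strain (Schizosaccharomyces pombe) in which the seventh residue of 14 heptads in the tail of RNA polymerase II is alanine in place of serine. Its members are the 4 arrays titled S7A, replicates 1 to 4, out of 16 arrays in the series. On each array RNA of the mutant was set against RNA of wild type (WT) in the other colour. The tail is made of heptads of 7 residues, and the rpb1 gene of every mutant kept 18 unaltered "rump" heptads and then carried 14 altered ones. These read YSPTSPA in S7A (4 arrays), YSPTSPE in S7E (3 arrays), YAPTSPA in S2A/S7A (5 arrays) and YAPTSPS in S2A (4 arrays). The labels give no repeat structure for the WT partner, so a comparison with WT cannot tell the substitution apart from any other difference in the tail. A contrast between mutants compares strains with the same labelled number of rump and altered heptads.

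The C-terminal domain (CTD) of Rpb1, the largest subunit of RNA polymerase II, is a row of heptads whose serines are phosphorylated and dephosphorylated as the polymerase moves along a gene. The phosphorylated tail is known to recruit factors for capping, splicing, 3′ end formation and chromatin modification. Phosphorylation of the seventh serine is best known from mammals, where it acts in the expression of the genes for spliceosomal snRNAs. Alanine cannot be phosphorylated, and glutamate carries a negative charge and is often used to stand in for a phosphate.

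Cells were inoculated at an optical density of 0.1 in 25 mL of YES, a rich medium, and collected at 0.5 in mid-log phase. Replicates were separate cultures. It is not stated whether arrays shared a WT culture. The arrays carried probes in exons, introns and junctions, and 14608 to 14835 of 15207 probes had a value on the S7A arrays. The number of arrays limits the precision. Each deposited value was taken as a log2 ratio of mutant over WT, a base and a direction that are likely but that no source states. A positive value then means more RNA in S7A than in WT. The value of a gene was its exon probe, or the mean of its exon probes, and most genes had 1. Values are given with the standard error (SE) of the fit, which used limma on all 16 arrays. The SE and the adjusted p rest on a spread shared by all mutants, not on the scatter of the S7A arrays alone. At mei2 the 4 S7A arrays had a standard deviation of 0.88 and the SE was 0.21. At tlh2 the standard deviation was 0.16 and the SE 0.27. Past the threshold means an adjusted p under 0.05 over all genes tested, and "rose" and "fell" are used only for genes that passed. WT was measured only as the partner on the same array, so the test holds no separate spread of WT.

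Replicate 4 stood apart from the other S7A arrays. Across the 5163 genes tested it correlated with replicates 1, 2 and 3 at r = 0.69, 0.72 and 0.57, against 0.89 to 0.91 among those 3. These are correlations across genes, which are not independent replicates. Most of the largest changes were smaller on replicate 4, and a few were larger. Counts and values without it are given beside many of the results below. By the same measure, replicate 1 of S7E (0.64 and 0.67 with its other 2 arrays, which had 0.97) and replicate 4 of S2A (0.66 to 0.72, against 0.93 to 0.98) stood apart in the other mutants, so contrasts with S7E and S2A were also fitted with each array left out. These 3 arrays all had the mutant in the dye Cy5, as did replicate 1 of S7A and of S2A, which did not stand apart. S7A and S2A had 2 arrays with the mutant in Cy5 and 2 in Cy3, S2A/S7A 2 and 3, and S7E 1 and 2. Without its replicate 1, S7E was thus left with 1 dye. Whether the dye bears on the arrays that stood apart was not tested.

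In S7A, 928 of 5163 genes rose (18.0%) and 857 fell (16.6%), 1785 in all (34.6%). The samples were bulk cultures, so a change in the number of cells that make an RNA and a change in its level per cell cannot be told apart. Most of these differences were small. At least 1.5-fold differences numbered 110 higher and 84 lower, and at least 2-fold differences 33 higher and 24 lower. The median over all genes tested was 0.0027. Of the 1785 genes, 1683 had 1 sign on all 4 arrays. Without replicate 4, 743 genes rose and 714 fell. Of the 1785, 1305 were then still past the threshold and 1783 kept their sign, and another 152 passed only then. Leaving out replicate 2 gave the fewest calls, 1192.

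The highest gene in S7A was the hexose transporter gene ght5 and the lowest the iron transporter gene str1. ght5, which takes up glucose with high affinity, had log2 ratios of 3.34, 3.05, 3.08 and 4.00 on replicates 1 to 4. All 4 arrays were far above 0, and replicate 4 was the highest. The fitted value was 3.37 ± 0.14 (limma, adjusted p = 3.93e-10), 10.3-fold more RNA in S7A than in WT. pho1, a cell-surface acid phosphatase, had 2.75, 2.49, 2.23 and 1.998, and the fitted value was 2.37 ± 0.16 (adjusted p = 4.96e-08). At the other end, str1, which imports siderophore-bound iron, had -4.46, -4.47, -4.68 and -3.31 and a fitted value of -4.23 ± 0.22 (adjusted p = 4.64e-09). That is 18.8-fold less RNA in S7A than in WT, and replicate 4 showed the smallest drop.

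**Figure D1:**
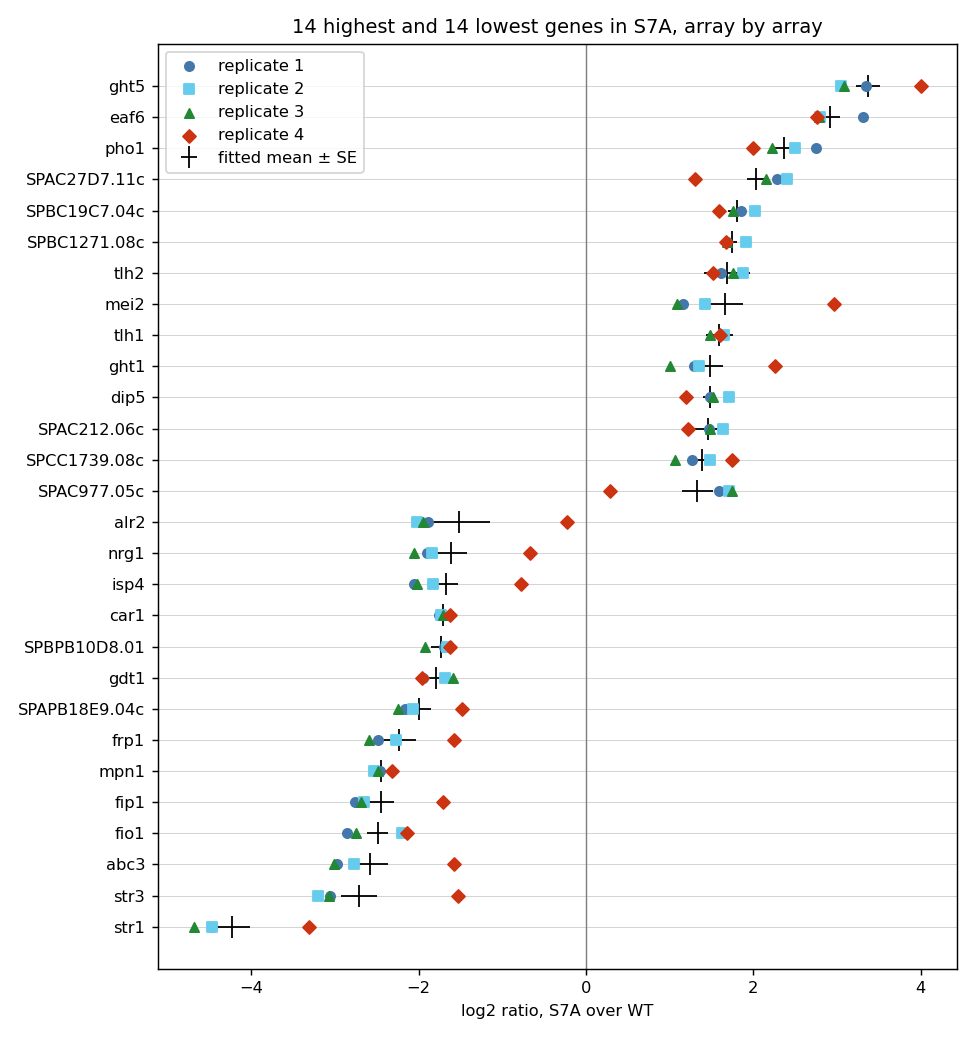
Log2 ratio of S7A over WT (x axis) for the 14 highest and the 14 lowest genes that passed the threshold with 1 sign on all 4 arrays, ordered from ght5 at the top to str1 at the bottom. Each symbol is 1 array, and the black bars are the fitted mean ± SE. Replicate 4 (red diamonds) lies closer to 0 than replicates 1 to 3 for str1, str3, abc3, nrg1, alr2 and SPAC977.05c, and farther from 0 for ght5, mei2 and ght1.

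Genes of other kinds stood beside these. mei2, an RNA-binding protein that starts meiosis, had 1.16, 1.43, 1.09 and 2.97, so that replicate 4 stood far above the rest. Its fitted value of 1.66 ± 0.21 (adjusted p = 3.13e-05) was 1.19 without that array. SPAC27D7.11c had 2.28, 2.40, 2.15 and 1.31 (2.04 ± 0.12, adjusted p = 1.16e-08), all well above 0. dip5 rose by 1.48 ± 0.075 and SPBC19C7.04c by 1.80 ± 0.11, with replicates in close reach of each other. SPCC1739.08c rose by 1.39 ± 0.11 and SPAC212.06c by 1.45 ± 0.19. Among the lowest genes, mpn1, which trims the 3′ end of U6 snRNA, had -2.47, -2.53, -2.49 and -2.32. The 4 arrays barely differed, and the fitted value was -2.45 ± 0.064 (adjusted p = 1.77e-12). car1, the enzyme arginase, was as even, with -1.75, -1.73, -1.71 and -1.62 and a fitted value of -1.71 ± 0.048 (adjusted p = 3.01e-12). gdt1 had -1.95, -1.68, -1.59 and -1.96 (-1.80 ± 0.11), SPAPB18E9.04c fell by 1.99 and SPBPB10D8.01 by 1.73 on the log2 scale. alr2 had -1.88, -2.02, -1.95 and -0.22, and its fitted value of -1.52 ± 0.37 (adjusted p = 0.00545) was -1.85 without replicate 4, which was near 0. SPAC977.05c had 1.58, 1.70, 1.74 and 0.29, with replicate 4 low again (1.33 ± 0.19, and 1.67 without it).

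The rise of eaf6, a subunit of histone acetyltransferase complexes, rested on its 1 exon probe, in exon 2. That probe had 3.31, 2.80, 2.78 and 2.76 and a fitted value of 2.91 ± 0.13 (adjusted p = 5.39e-10), 7.53-fold above WT. The probe in its intron had a mean of 0.084 and the probe across its exon 1 to exon 2 junction 0.079, both near 0. The 3 probes of this gene therefore disagreed in S7A. The exon probe was at 0.10 ± 0.15 in S7E, 3.09 ± 0.11 in S2A/S7A and 0.035 ± 0.13 in S2A. S7A was above S7E by 2.82 ± 0.20 (adjusted p = 1.05e-07) and above S2A by 2.88 ± 0.18 (adjusted p = 1.71e-08), and differed from S2A/S7A by -0.18 ± 0.17 (adjusted p = 0.429). The strains with alanine at the seventh residue were thus high at this probe, and those with serine or glutamate there were near 0.

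The RNA of rpb1 itself was -0.066, 0.078, 0.024 and 0.28 on the 4 arrays, on both sides of 0, with a fitted value of 0.080 ± 0.058 (adjusted p = 0.313). No probe sequence was at hand, so the allele could not be checked on the arrays.

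Iron enters fission yeast through a ferric reductase (frp1), a permease with its ferroxidase (fip1 and fio1), siderophore transporters and a heme route. The genes of these routes are known to be held down by the repressor Fep1 when iron is ample. Of 11 genes of iron uptake, 7 fell in S7A, 1 rose and 3 did not pass, with a median of -2.23. Over all genes, the shares were 16.6% lower and 18.0% higher and the median 0.0027. The reductive route fell together. fio1 had -2.86, -2.20, -2.75 and -2.15 (-2.49 ± 0.13, adjusted p = 3.74e-09), and all 4 arrays lay below -2. fip1 had -2.76, -2.66, -2.69 and -1.70 (-2.45 ± 0.15, adjusted p = 2.63e-08), and frp1 had -2.48, -2.27, -2.59 and -1.58 (-2.23 ± 0.20, adjusted p = 1.06e-06). In both, replicate 4 showed the smallest drop and still lay well below 0. The other large drops, beside str1, were in str3 and abc3. str3, a relative of str1, had -3.06, -3.20, -3.07 and -1.53 (-2.71 ± 0.21, adjusted p = 2.52e-07). abc3, a vacuolar transporter, had -2.98, -2.77, -3.02 and -1.58 (-2.59 ± 0.21, adjusted p = 4.06e-07). Replicate 4 was again the mildest array for both. Without it the median of the list was -2.48.

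The remaining members of the uptake list moved little. frp2, a second ferric reductase gene, was at -0.23 ± 0.068 (adjusted p = 0.0164), a call that was lost without replicate 1 (adjusted p = 0.0692) or 3 (0.118). str2 was at 0.18 ± 0.060 (adjusted p = 0.0294), lost without replicate 1, 2 or 4 (adjusted p = 0.0631, 0.113 and 0.197). sib1 and sib2, which make the siderophore ferrichrome, were at 0.060 ± 0.054 and -0.12 ± 0.052 (adjusted p = 0.417 and 0.0833). shu1, a heme receptor, was at 0.44 ± 0.18 (adjusted p = 0.0752). The large drops thus sat in 6 of the 11 genes.

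Regulators of iron genes moved less. php4, which joins the CCAAT-binding complex and represses iron-using genes when iron is scarce, had -0.65, -0.53, -0.62 and -0.75, below 0 on every array (-0.64 ± 0.061, adjusted p = 3.01e-06). grx4, a glutaredoxin that relays iron status, fell (-0.38 ± 0.069, adjusted p = 0.000718). php2, another subunit of the CCAAT-binding complex, rose (0.35 ± 0.070), as did the corepressor tup12 (0.30 ± 0.059), and fep1 was at 0.15 ± 0.062 (adjusted p = 0.0728). In all, 2 of 8 regulators rose and 2 fell. Among 16 genes for iron-using proteins, 9 rose and none fell, a median of 0.21 against 0.0027 over all genes. These were aco1 (aconitase, 0.52 ± 0.066), lys2 (0.46 ± 0.044), the vacuolar iron transporter pcl1 (0.38 ± 0.051), leu2, sdh1, sdh2, sdh3, isa1 and glt1, the last 6 between 0.16 and 0.30. The count was 5 without replicate 1 and 6 without replicate 4, and with arrays scaled to equal spread 12 rose and 2 fell.

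Most of these drops were larger in S7A than in the other mutants. The contrasts cover the 6 genes with large drops. Against S7E, S7A was lower at 5 of them, with differences (S7A minus S7E) for fio1 of -1.65 ± 0.20 (adjusted p = 1.53e-05), for str1 of -1.22 ± 0.34 (0.01), for str3 of -1.11 ± 0.33 (0.0134), for frp1 of -1.003 ± 0.31 (0.0183) and for fip1 of -0.99 ± 0.24 (0.00373). Without replicate 1 of S7E the str3 contrast did not pass (adjusted p = 0.0532), and the frp1 contrast did not pass without replicate 3 of S7A (0.0589) or replicate 2 of S7E. abc3 differed between S7A and S7E by -0.070 ± 0.33 (adjusted p = 0.873). S7E itself lay below WT at all 6 genes, abc3 being -2.52 and fio1 -0.84. The mutants with alanine at the second residue were not low at fio1 and fip1. fio1 was at -0.84 ± 0.15 in S7E, 1.27 ± 0.12 in S2A/S7A and 0.96 ± 0.13 in S2A, and fip1 at -1.46 ± 0.18 in S7E, 1.09 ± 0.14 in S2A/S7A and 0.72 ± 0.15 in S2A. Smaller drops below WT were seen at abc3 in S2A/S7A (-0.66 ± 0.19, adjusted p = 0.00718) and S2A (-0.93 ± 0.21, 0.0016). S2A was also low at str3 (-0.93 ± 0.21, 0.0016). At str1 and frp1 neither S2A/S7A nor S2A passed the threshold against WT, and S2A/S7A did not at str3. S7A was lower than both strains at all 6 genes, with differences of -1.92 (abc3) to -3.99 (str1) against S2A/S7A and of -1.65 to -3.70 against S2A. The median of the 11 genes was -2.23 in S7A, -0.84 in S7E, 0.27 in S2A/S7A and 0.35 in S2A. php4 differed from S7E by -0.023 ± 0.095 (adjusted p = 0.861) and from S2A/S7A by -0.74 ± 0.087 (adjusted p = 1.46e-05).

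**Figure D2:**
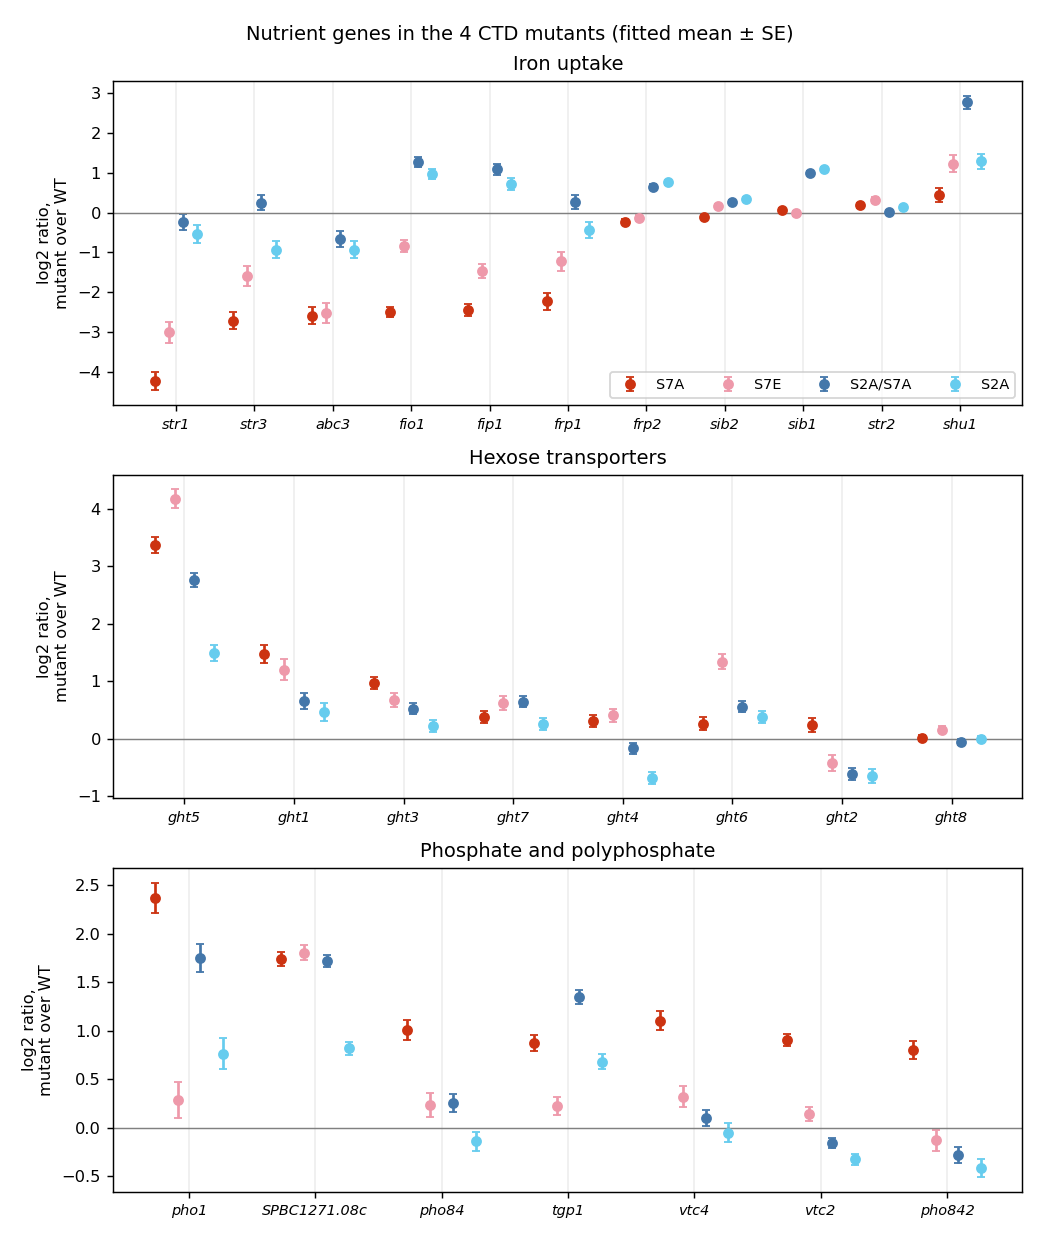
Log2 ratio of mutant over WT (y axis) for genes of iron uptake, hexose transport and phosphate or polyphosphate use, as fitted mean ± SE, in S7A (red, leftmost of each set), S7E, S2A/S7A and S2A. In the top panel S7A is the lowest of the 4 strains at str1, str3, fio1, fip1 and frp1, and in the bottom panel it is the highest at pho1, pho84, vtc4, vtc2 and pho842.

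Hexose transporters of the Ght family carry glucose and related sugars, and several are known to be repressed in ample glucose. Of 8 members, 5 rose and none fell, with a median of 0.34, where 18.0% of all genes rose and 16.6% fell. Beside ght5, ght1 had 1.29, 1.35, 1.004 and 2.26, all above 0 and highest on replicate 4 (1.48 ± 0.15, adjusted p = 4.07e-06). ght3 had 0.94, 1.38, 1.06 and 0.52, lowest on replicate 4 (0.97 ± 0.10, adjusted p = 4.87e-06). ght7 (0.38 ± 0.10) and ght4 (0.31 ± 0.10) passed only weakly. Without replicate 4 neither did (adjusted p = 0.0733 and 0.17) and the count was 3, and ght7 was also lost without replicate 2 (adjusted p = 0.0579). ght6 was at 0.26 ± 0.11 (adjusted p = 0.0745), ght2 at 0.24 ± 0.12 (0.135) and ght8 at 0.0052 ± 0.053 (0.95).

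The order of the strains at ght5 was S7E, S7A, S2A/S7A and S2A. It was at 4.17 ± 0.17 in S7E, 2.76 ± 0.13 in S2A/S7A and 1.49 ± 0.14 in S2A, so that S7A lay below S7E (difference -0.80 ± 0.22, adjusted p = 0.00874) and above S2A/S7A by 0.61 ± 0.19 (0.0183, and 0.0656 without replicate 4 of S7A) and S2A by 1.88 ± 0.20 (3.85e-06). ght1 differed from S7E by 0.27 ± 0.24 (adjusted p = 0.368) and was above S2A/S7A by 0.82 ± 0.21 (0.00512) and S2A by 1.01 ± 0.22 (0.00176).

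Enzymes that use sugars and other carbon sources rose more often than they fell, 8 up and 2 down of 13, with a median of 0.34, beside 18.0% up and 16.6% down among all genes. idn1, a gluconate kinase, rose by 0.67 ± 0.041, the hexokinase hxk1 by 0.60 ± 0.043 and the invertase inv1 by 0.60 ± 0.068. dak2, a dihydroxyacetone kinase, had 0.76, 0.76, 0.70 and 0.27, low on replicate 4 (0.62 ± 0.072). The rest of the 8 were gut2 (0.47), adh4 (0.39), dak1 (0.32) and fbp1 (0.22). The glucosidase genes mal1 (-0.43 ± 0.057) and agl1 (-0.32 ± 0.079) fell. Among 14 genes of glucose signalling, 6 rose and 2 fell (all genes, 18.0% and 16.6%), but only 2 rose without replicate 2. scr1, a zinc-finger repressor that acts in ample glucose, rose by 0.75 ± 0.090 and rst2, an activator of glucose-repressed genes, by 0.31 ± 0.055, and hsp90 (-0.46 ± 0.072) and git1 (-0.25 ± 0.050) fell.

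Fission yeast takes up phosphate through the acid phosphatase Pho1, the transporter Pho84 and the glycerophosphodiester transporter Tgp1, whose genes are known to be repressed in ample phosphate by transcription of long non-coding RNAs upstream. All 4 genes on the list of phosphate acquisition rose, as did 18.0% of all genes, with a median of 1.37. pho84 had 1.06, 0.83, 0.73 and 1.41 (1.01 ± 0.10, adjusted p = 3.01e-06) and tgp1 1.12, 0.93, 0.80 and 0.65 (0.87 ± 0.080, adjusted p = 1.11e-06). Every array was at least 0.65 above 0 for both. SPBC1271.08c, the neighbour of tgp1, had 1.69, 1.92, 1.68 and 1.67 (1.74 ± 0.069, adjusted p = 2.45e-10). It was on the list beside pho1, pho84 and tgp1, and so entered the count and the median. The next gene along, SPBC1271.07c, was chosen after its values were seen and had 1.32, 1.38, 1.53 and 0.67 (1.22 ± 0.11).

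Genes of polyphosphate, the stored form of phosphate in vacuoles, rose as well. vtc4, which makes polyphosphate, had 1.02, 1.07, 0.99 and 1.33 (1.10 ± 0.10, adjusted p = 6.68e-07). vtc2, a partner subunit, had 0.90, 0.88, 0.89 and 0.95, close to each other (0.90 ± 0.058, adjusted p = 3.47e-08). pho842, a relative of pho84, had 0.89, 0.65, 0.53 and 1.12 (0.80 ± 0.093, adjusted p = 1.19e-05). Of the 9 genes on the list, 4 rose, with aps1 the weakest (0.21 ± 0.075). 1 fell, the kinase gene csk1 (-0.23 ± 0.075, adjusted p = 0.0281), and it did not pass without replicate 1, 2 or 3 (adjusted p = 0.0679, 0.153 and 0.073). The phosphate activator pho7 was at -0.013 ± 0.088, the inositol pyrophosphate kinase asp1 at 0.064 ± 0.042 and pqr1 at -0.11 ± 0.049, none past the threshold. Without replicate 4, 3 of the 9 rose and 2 fell.

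Against the other mutants, the phosphate genes split into separate patterns. pho1 was higher in S7A than in S7E by 2.08 ± 0.24 (adjusted p = 1.2e-05), than in S2A/S7A by 0.62 ± 0.21 (0.0297, and 0.107 without replicate 1 of S7A, 1 of 5 arrays whose removal ended the call) and than in S2A by 1.61 ± 0.22 (4.41e-05). The same direction held in all 3 contrasts for pho84 (0.77, 0.76 and 1.15), vtc4 (0.78, 1.001 and 1.15), vtc2 (0.76, 1.06 and 1.23) and pho842 (0.93, 1.08 and 1.22), each past the threshold. vtc2 was at 0.14 ± 0.068 in S7E, -0.16 ± 0.052 in S2A/S7A and -0.32 ± 0.058 in S2A. tgp1 was higher in S7A than in S7E (0.65 ± 0.12) and lower than in S2A/S7A (-0.48 ± 0.11), and differed from S2A by 0.19 ± 0.11 (adjusted p = 0.195). SPBC1271.08c differed from S7E by -0.065 ± 0.11 (adjusted p = 0.642) and from S2A/S7A by 0.019 ± 0.093 (0.893), and was above S2A by 0.92 ± 0.10 (3.31e-06).

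Genes on the list linked to nitrogen starvation mostly fell. Of 13 genes linked to nitrogen starvation, 8 fell and 3 rose (2 without replicate 4), with a median of -0.29, beside 16.6% falling and 18.0% rising among all genes. The oligopeptide transporter isp4 had -2.05, -1.83, -2.02 and -0.78 (-1.67 ± 0.14, and -1.97 without replicate 4) and the amino acid permease isp5 -1.78, -1.502, -1.68 and 0.13 (-1.21 ± 0.21, and -1.68 without replicate 4). Replicate 4 was the outlying array in both, and slightly above 0 for isp5. put4 (-0.76 ± 0.10) and aat1 (-0.64 ± 0.086), further amino acid permease genes, fell too, while amt3, an ammonium transporter gene, rose (0.39 ± 0.054). Not all amino acid transporter genes fell, since dip5 (1.48 ± 0.075) and cat1 (0.39 ± 0.0715) rose. The neighbours urg2, urg3 and urg1, known to be induced by uracil, fell together. urg1 had -1.56, -1.496, -1.64 and -0.15 (-1.21 ± 0.16, and -1.56 without replicate 4), urg2 -1.29, -1.65, -1.75 and -0.29 (-1.24 ± 0.15, and -1.52 without it) and urg3 -1.09, -0.9999, -1.13 and -0.40 (-0.90 ± 0.11, and -1.09 without it). Replicate 4 showed little of this drop. urg1 was lower in S7A than in S7E (difference -1.29 ± 0.25, adjusted p = 0.000902) and higher than in S2A by 2.15 ± 0.23 (4.12e-06).

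Genes of mating and meiosis were read against the 18.0% of all genes that rose and the 16.6% that fell. The transcription factor ste11, which turns on mating genes, had 0.59, 0.65, 0.51 and 1.01, highest on replicate 4 (0.69 ± 0.078, adjusted p = 1.03e-05). Of 17 regulators of sexual differentiation, 10 rose and none fell, with a median of 0.22, but 6 rose without replicate 4. mei3, which switches off the kinase Pat1 to start meiosis, had 0.53, 0.61, 0.59 and 0.58, even across the arrays (0.58 ± 0.062), and pat1 rose by 0.37 ± 0.075. Among genes of M cells, 7 of 12 rose and 2 fell, and only 4 rose without replicate 2 and 3 without replicate 4. mam2, the receptor for P-factor, had 0.59, 0.87, 0.63 and 1.04 (0.79 ± 0.071). The M-factor genes mfm3 and mfm1 fell, with little or no drop on replicate 4, at -0.96, -0.94, -1.04 and -0.13 for mfm3 (-0.77 ± 0.12, and -0.99 without that array) and -0.70, -0.65, -0.70 and 0.10 for mfm1 (-0.49 ± 0.11, and -0.70 without it). Among genes of P cells, 4 of the 5 tested rose, namely map1 (0.44 ± 0.071), map3 (0.44 ± 0.073), map2 (0.38 ± 0.082) and map4 (0.38 ± 0.087). Another 4 listed genes were not among those tested.

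Several of these genes differed between S7A and S2A. ste11 was at 0.50 ± 0.091 in S7E, 0.20 ± 0.071 in S2A/S7A and -1.12 ± 0.078 in S2A, and S7A exceeded S2A by 1.80 ± 0.11 (adjusted p = 1.39e-08) and differed from S7E by 0.19 ± 0.12 (0.223). mei2 was higher in S7A than in S2A by 2.44 ± 0.30 (1.42e-05) and differed from S7E by -0.64 ± 0.33 (0.127). The mating-type gene mat3-Mc was above S2A by 2.92 ± 0.15, mat1-Mc by 2.78 ± 0.14 and mfm2 by 3.08 ± 0.20, all among the 4 largest excesses of S7A over S2A. The values of mat3-Mc and mat1-Mc were alike, at 0.31 and 0.29 in S7A and -2.61 and -2.49 in S2A. Whether their probes tell these genes apart was not tested, so they may report the same RNA. In S7A itself mat3-Mc was at 0.31 ± 0.11, past the threshold only with all 4 arrays, and mfm2 at 0.52 ± 0.14, 0.29 (adjusted p = 0.0832) without replicate 4.

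Meiotic transcripts that the RNA-binding protein Mmi1 is known to send to decay in growing cells were tested as 13 genes, of which 8 rose (5 without replicate 2) and 3 fell, with 18.0% rising and 16.6% falling over all genes. rec8, a meiotic cohesin subunit, rose by 0.44 ± 0.065, spo5 by 0.38 ± 0.061 and mug8 by 0.80 ± 0.18. ssm4 (-0.29 ± 0.053), mcp7 (-0.52 ± 0.14) and meu32 (-0.48 ± 0.087) fell. The decay factors moved little, with rhn1 at -0.31 ± 0.042 and red1 at 0.23 ± 0.042. rec8 is described further among the junctions, because 1 of its junctions moved against its exon.

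Genes of the transcription and chromatin machinery were counted next. Of 26 genes for CTD kinases, phosphatases and elongation factors, 4 rose and 3 fell, against 18.0% and 16.6% over all genes. Leaving out 1 array left 1 to 3 rising and 1 or 2 falling. The phosphatase gene clp1 rose by 0.24 ± 0.042 and held in every such fit. Of 13 RNA polymerase II subunit genes, 1 rose (rpb9, 0.19 ± 0.047) and 3 fell (rpb5, -0.37 ± 0.062, rpb11, -0.24 ± 0.048, and rpb8, -0.20 ± 0.054). rpb8 did not pass without replicate 2 (adjusted p = 0.11). Among 22 genes of heterochromatin and RNA interference, 2 rose (1 without replicate 1) and 2 fell (3 without replicate 4). rdp1, the RNA-dependent RNA polymerase of that pathway, had -0.94, -0.73, -0.79 and -0.83 (-0.82 ± 0.057, adjusted p = 1.44e-07), and clr2, a subunit of the silencing complex SHREC, 0.66, 0.61, 0.49 and 0.51 (0.57 ± 0.066, adjusted p = 1.24e-05). The 4 arrays were close for both. rdp1 was lower in S7A than in S7E (-0.51 ± 0.088), S2A/S7A (-1.13 ± 0.081) and S2A (-1.20 ± 0.081), and clr2 higher than in S7E (0.66 ± 0.10), S2A/S7A (0.32 ± 0.089) and S2A (0.56 ± 0.093), all past the threshold. Among 16 histone acetyltransferase genes 2 rose and 2 fell (1 of each without replicate 1 or 2, and 1 falling without replicate 4), spt7 of the SAGA complex being the clearest beside eaf6 (-0.54 ± 0.061). eaf6 was counted there by its exon probe, a rise that its intron and junction probes did not share. Of 29 spliceosome genes, 1 rose (2 without replicate 3) and 5 fell, among them mpn1, prp12 (-0.35 ± 0.053) and uaf2 (-0.33 ± 0.048), and 3 fell without replicate 1, 3 or 4.

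For the next lists, the shares over all genes were again 18.0% rising and 16.6% falling. Of 14 targets of the cell-cycle factor MBF, 6 fell and none rose, with 2 falling without replicate 2 or 4 and 3 without replicate 3, and the largest was cdc22 at -0.40 ± 0.11 (adjusted p = 0.0592 without replicate 4). Of 33 respiratory chain genes, 9 fell and 4 rose (2 without replicate 1 or 4, and 6 falling without replicate 1). The falling genes were led by atp5 (-0.46 ± 0.051) and cox4 (-0.45 ± 0.055). Ribosomal protein genes of the cytosol had 14 falling and 1 rising of 141 (7 and 2 without replicate 4), a median of -0.076. Among 16 stress response genes, 3 rose and 1 fell (2 falling without replicate 3 or 4, and 2 rising without replicate 1, 2 or 3), with cta3 at 0.57 ± 0.051. The cell-surface flocculins pfl9 (1.26 ± 0.12) and pfl6 (0.55 ± 0.066) rose, and pfl7 (-1.20 ± 0.21) and pfl3 (-0.51 ± 0.10) fell. The copper transporter gene ctr4 had 0.98, 0.80, 0.81 and -0.63, high on 3 arrays and below 0 on replicate 4. It did not pass (0.49 ± 0.19, adjusted p = 0.0655) and did so without that array (0.83, adjusted p = 0.00135). fet4, which carries several metals, rose by 0.57 ± 0.10.

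Small RNAs held a group that fell in S7A. Of 26 snoRNAs, which guide the modification of ribosomal RNA, 9 fell and 1 rose, where 16.6% of all genes fell and 18.0% rose, and without a replicate 7 to 9 fell and none rose. 5 of the 9, snoZ8, snoZ7, snoZ5, snoZ4 and snoZ3, follow each other on chromosome I. Whether these 5 are made as 1 transcript was not tested, so the count may hold the same change more than once. snoZ5 had -1.05, -1.27, -1.18 and -1.24 (-1.19 ± 0.084, adjusted p = 9.55e-08), and snoZ4 -0.92, -1.03, -0.82 and -0.84 (-0.90 ± 0.053, adjusted p = 1.6e-08). snoZ3 was at -0.85 ± 0.060, snoZ7 at -0.78 ± 0.067 and snoZ8 at -0.46 ± 0.064. All 4 arrays were below 0 for each of the 5, and replicate 4 was the mildest only for snoZ8 and snoZ3. snoR38, elsewhere on chromosome I, had -1.16, -0.81, -1.12 and -1.09 (-1.04 ± 0.076, adjusted p = 1.2e-07). The others that fell were snoU24b (-0.39), snoU18 (-0.32, adjusted p = 0.0548 without replicate 4) and snoU24 (-0.24).

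At snoZ3, snoZ4, snoZ5, snoZ7 and snoR38 S7A was lower than each other mutant. snoZ5 was at -0.43 ± 0.10 in S7E, -0.63 ± 0.075 in S2A/S7A and -0.25 ± 0.084 in S2A, and the differences of S7A from those 3 were -0.76 ± 0.13 (adjusted p = 0.000309), -0.56 ± 0.11 (0.00109) and -0.93 ± 0.12 (1.95e-05). For snoZ3, snoZ4, snoZ7 and snoR38 all 3 contrasts passed, with differences of -0.44 (snoZ3 against S2A/S7A) to -1.35 (snoR38 against S2A). snoZ8 passed against S7E (-0.46 ± 0.10) and S2A (-0.27 ± 0.090) but not S2A/S7A (-0.21 ± 0.086, adjusted p = 0.0654).

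The spliceosomal snRNA U4 (snu4) was above WT in S7A and below it in the other mutants. It had 0.78, 0.64, 0.48 and 0.23, all above 0 and lowest on replicate 4 (0.53 ± 0.10, adjusted p = 0.00121), and was at -0.39 ± 0.12 in S7E, -0.54 ± 0.10 in S2A/S7A and -0.35 ± 0.10 in S2A. S7A was above S7E by 0.93 ± 0.16 (adjusted p = 0.000359), above S2A/S7A by 1.07 ± 0.14 (4.53e-05) and above S2A by 0.88 ± 0.14 (0.000236). Of the 4 snRNAs tested, snu32 also rose (0.23 ± 0.072, adjusted p = 0.0328), but only 1 of the 4 rose without replicate 2, 3 or 4. Of 66 nuclear tRNAs, 17 rose and 1 fell, a median of 0.13, with 18.0% and 16.6% doing so over all genes, and 8 rose without replicate 2, 11 without replicate 1 or 3. Of 25 mitochondrial tRNAs, 1 rose and 2 fell, but none fell without replicate 1, 2 or 3 and 4 fell without replicate 4. How fully RNAs this short were labelled by reverse transcription was not tested.

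**Figure D3:**
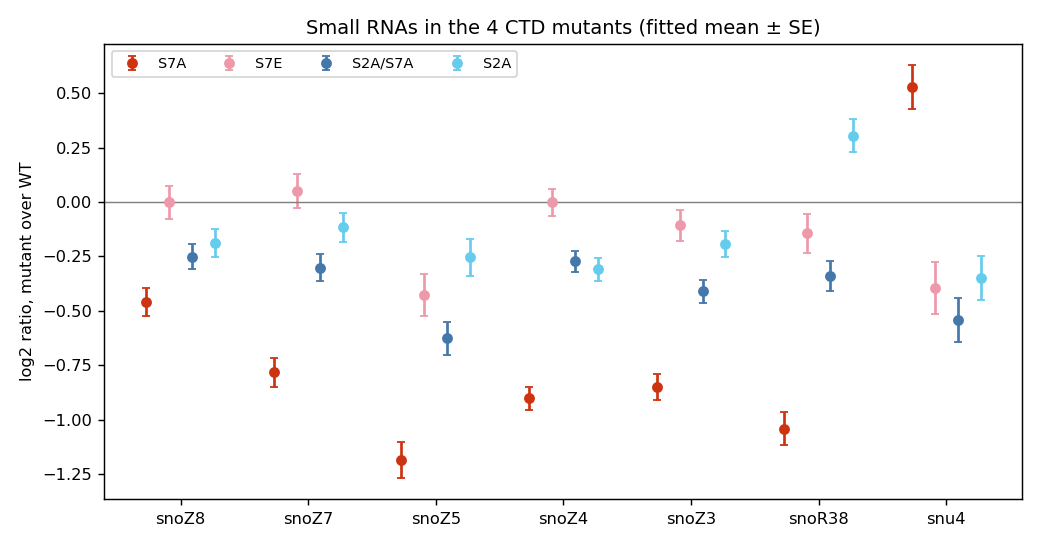
Log2 ratio of mutant over WT (y axis, fitted mean ± SE) for 6 snoRNAs and the U4 snRNA (snu4) in S7A (red, leftmost of each set), S7E, S2A/S7A and S2A. S7A is the lowest of the 4 strains at each snoRNA, down to -1.19 at snoZ5, and the only strain above 0 at snu4.

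Genes at the ends of chromosomes I and II were higher in S7A. The outermost genes there include tlh1 and tlh2, telomere-linked helicase genes, and sit in or near chromatin that is known to be silenced. tlh2 had 1.61, 1.87, 1.75 and 1.51 (1.69 ± 0.27, adjusted p = 0.000247) and tlh1 1.64, 1.65, 1.49 and 1.60 (1.59 ± 0.16, adjusted p = 3.43e-06). Replicate 4 was close to the other arrays for both. Taking the outermost 20 tested genes at each of the 4 ends, 52 of 80 rose and 3 fell, 65.0% and 3.75%, against 18.0% and 16.6% over all genes. The median was 0.45, and 0.56, 0.58, 0.56 and 0.30 on replicates 1 to 4. Without replicate 4, 52 rose and 2 fell. The left end of I had 13 rising of 20, its right end 9, the left end of II 13 and its right end 17. Of the next 20 genes inward at the same ends, 17 of 80 rose and 21 fell, with a median of -0.0013. At the ends of chromosome III, which carry the ribosomal RNA genes, 5 of the outermost 40 rose and 13 fell.

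Large drops lay close by. Counted in tested genes, gdt1 was at position 13 from the right end of I, str3 at position 31 from the left end of I, and SPBPB10D8.01, alr2 and abc3 at positions 26, 33 and 36 from the left end of II. At the right end of II, nrg1 (-1.62 ± 0.19) fell at position 24 while pho1 and pho84 rose at 25 and 26. The medians of the outermost 80 genes were 0.45 in S7A, 0.66 in S7E, 1.07 in S2A/S7A and 0.95 in S2A. tlh1 was lower in S7A than in S2A/S7A (difference -1.11 ± 0.22, adjusted p = 0.001) and than in S2A (-1.39 ± 0.23, 0.000225), and differed from S7E by -0.13 ± 0.25 (0.701). Many genes at chromosome ends have near-identical copies, which the probes may not tell apart, so the value of each of these genes is uncertain. The counts and shares at the ends may also hold the same signal more than once. For example, ftm1, ftm4, ftm5 and SPBPB2B2.19c had nearly equal fitted values (1.288, 1.293, 1.311 and 1.291).

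**Figure D4:**
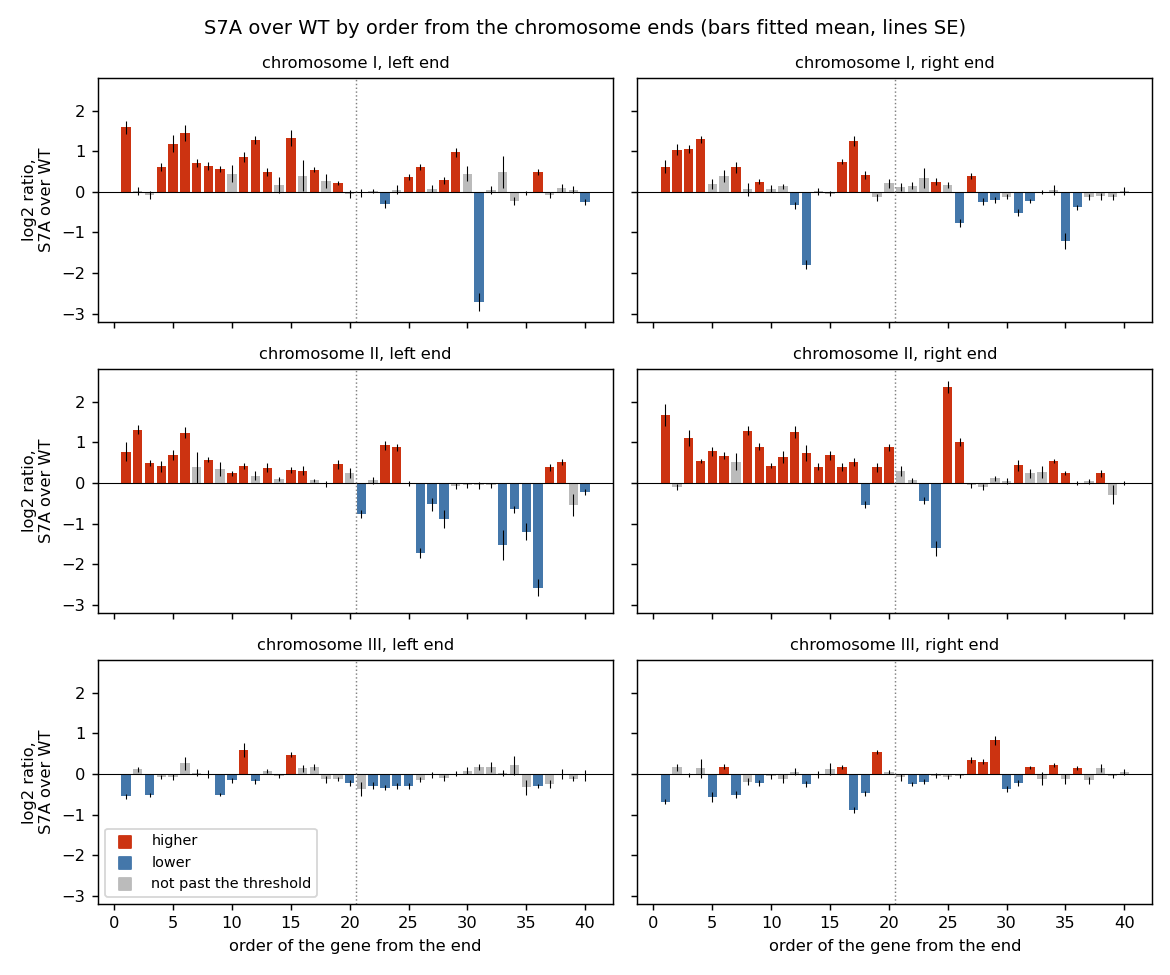
Log2 ratio of S7A over WT (bars, fitted mean, with lines for the SE) against the order of the tested genes from each chromosome end, up to 40. Red bars rose, blue bars fell and grey bars did not pass, and the dotted line follows gene 20. Red bars fill most of the outer 20 positions on chromosomes I and II, and not on chromosome III.

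Splicing was read from intron and junction probes minus the exon value of the same gene, so a negative intron value means less intron signal per exon signal in S7A than in WT. Of 4445 introns, 1344 were lower (30.2%) and 300 higher (6.75%), and the fitted median was -0.11. The medians of the arrays were -0.15, -0.12, -0.16 and 0.0015 on replicates 1 to 4, so replicate 4 did not share the shift. With every array centred on its median, 851 were lower and 716 higher, so the share of higher introns among those past the threshold was 18.2% as deposited and 45.7% when centred. Centring by its construction moves such a split towards even numbers. At least 2-fold differences numbered 35 lower and 0 higher, and after centring 24 lower and 3 higher.

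A set of introns fell while the exon of their gene stayed near WT. ppm1, a methyltransferase of protein phosphatase 2A, had -2.27, -2.15, -2.27 and -1.55 for intron 1 minus exon, a fitted difference of -2.06 ± 0.10 (adjusted p = 1.64e-10). The intron probe itself averaged -2.16 and the exon was at -0.10, and introns 2 and 3 had differences of -1.53 ± 0.062 and -1.19 ± 0.069. edc3, a factor of mRNA decapping, had -1.80, -1.92, -1.88 and -1.27 at its intron 1 (-1.72 ± 0.085, adjusted p = 2.44e-10), with the exon at 0.17. cdc3, which encodes profilin, had -1.96, -1.56, -1.80 and -1.37 at intron 1 (-1.67 ± 0.091, adjusted p = 7.82e-10), with the exon at -0.14. On all 4 arrays each of these 3 introns was far below 0, replicate 4 being the mildest. eaf6 intron 1 was also among the lowest (-2.83 ± 0.13), which is the rise of its exon probe, since the intron probe averaged 0.084.

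In all, 185 introns of 152 genes were lower with an intron probe at least 1.5-fold below WT and an exon within 0.3 of 0, against 4 introns higher by the same rule. This rule was applied to the values as deposited only, where introns as a class lay below 0. Over all introns, at least 1.5-fold differences numbered 226 lower and 17 higher as deposited, and 137 lower and 44 higher after centring. dsh1 and hrb1 were chosen after their values were seen. In dsh1 the probes of introns 1 to 7 lay between -1.44 and -0.37, with its exon at 0.047. In hrb1, intron 1 was at -1.40 ± 0.080, introns 3 and 6 at -0.80 and -0.79, while introns 2 (-0.38 ± 0.31) and 5 (-0.10 ± 0.071) did not pass. The SE at intron 2 takes in S7E replicate 1, at 3.18 there against -0.17 and -0.35 on replicates 2 and 3 of S7E. The missed call at intron 2 thus does not show that it differed from the other introns. Introns 1 and 5, with smaller SEs, did differ in fitted value. By position, 314 of 1155 introns that come first in a gene with several were lower, 718 of 2340 later ones and 312 of 950 in genes with 1 intron. The medians were -0.085, -0.11 and -0.13.

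The highest introns were those of lsd90 (0.92 ± 0.10 for intron 1 and 0.89 ± 0.12 for intron 2), dre4 intron 2 (0.95 ± 0.11) and pot1 intron 2 (0.84 ± 0.11). For pot1, a telomere-binding protein of shelterin, the intron probe averaged 0.68 with the exon at -0.16, while its intron 1 was at -0.18 ± 0.12. For dre4, the exon probe had fallen (-0.91) and the intron probe averaged 0.048. The difference there is thus the drop of the exon probe, which the junction probes of dre4 did not share (means of 0.091 and -0.15).

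Against the other mutants, ppm1 intron 1 was at -1.34 in S7E, -0.56 in S2A/S7A and 0.095 in S2A. Replicate 1 of S7E, which stood apart over all genes, was near the other S7E arrays here (-1.24, -1.51 and -1.36 on its replicates 1 to 3). The differences of S7A were -0.72 ± 0.15 (adjusted p = 0.00209), -1.503 ± 0.13 (7.12e-07) and -2.15 ± 0.14 (6.85e-09) against S7E, S2A/S7A and S2A. edc3 intron 1 (-1.03 in S7E, -0.35 in S2A/S7A and 0.051 in S2A) and cdc3 intron 1 (-0.96 in S7E, -0.49 in S2A/S7A and -0.18 in S2A) were lower in S7A in all 3 contrasts as well. The fitted median over all introns was -0.11 in S7A, -0.045 in S7E, -0.087 in S2A/S7A and -0.0037 in S2A. The S7E median leaned on its replicate 1, at -0.11, against -0.026 and -0.013 on its replicates 2 and 3.

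**Figure D5:**
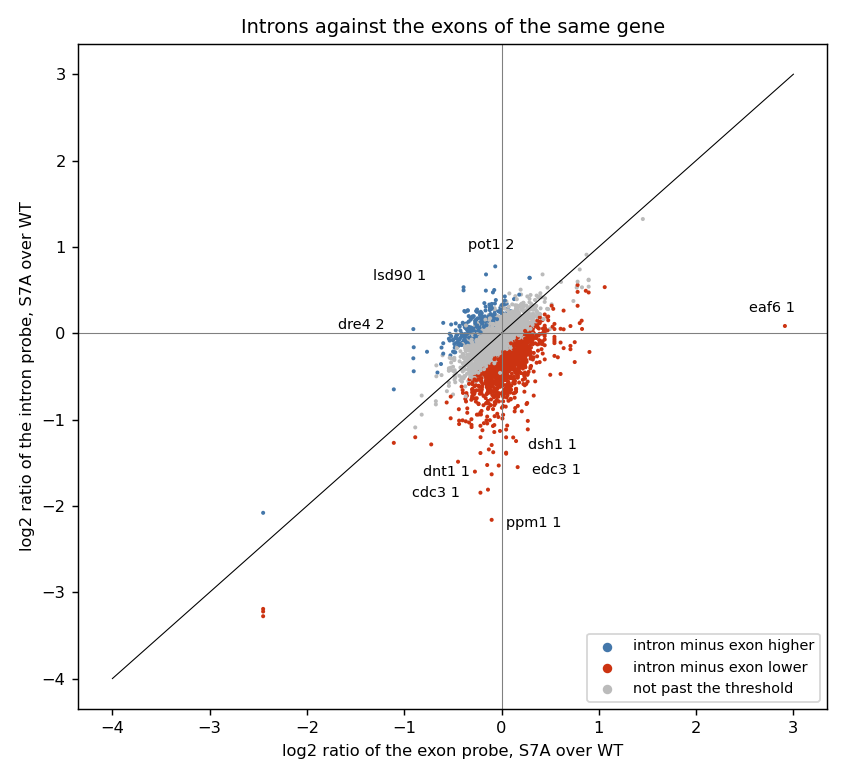
Each point is 1 of 4445 introns, with the log2 ratio of S7A over WT of the exon probe (x axis) and of the intron probe (y axis). Blue points are introns higher relative to their exon, red points lower and grey points not past the threshold, and the diagonal marks equal ratios. ppm1, cdc3, dnt1, dsh1 and edc3 introns lie far below 0 at exon ratios near 0, and eaf6 lies far to the right with its intron near 0.

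Of 4428 junctions of adjacent exons, 518 were higher (11.7%) and 89 lower (2.01%) relative to the exon. After centring of the arrays the counts were 265 and 155. The junction of exons 1 and 2 of dre4 was higher by 0.998 ± 0.11, with the exon probe at -0.91 and the junction itself averaging 0.091. All 5 junctions of ckn1 were higher, by 0.50 to 0.97 ± 0.074, with its exon at 0.12. In trm13 the junction of exons 1 and 2 was higher by 1.27 ± 0.15 and those of exons 2 and 3 and of exons 3 and 4 were at 0.093 ± 0.075 and -0.065 ± 0.083. mpn1 was uneven along its length. Its exon fell by 2.45 on the log2 scale, the junction of exons 4 and 5 averaged -2.44, those of exons 1 and 2 and of exons 3 and 4 -1.64 and -1.63, and that of exons 2 and 3 -0.049. That last junction was therefore 2.40 ± 0.087 above its exon.

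The lowest junctions beside eaf6 (-2.83 ± 0.13, again the rise of its exon probe) were in rec8, mmt1 and vam6. The junction of exons 4 and 5 of rec8 had -2.12, -2.06, -2.08 and -1.40 relative to the exon (-1.92 ± 0.15, adjusted p = 8.39e-07). The junction itself averaged -1.47 with the exon at 0.44, and the 3 junctions before it averaged 0.48 to 0.57. It was at -1.21 in S7E, 0.90 in S2A/S7A and 1.28 in S2A. On the S7E arrays it was -1.56, -1.04 and -1.09. S7A was lower than S2A, with a difference of -3.20 ± 0.21 (adjusted p = 1.17e-07) and differed from S7E by -0.71 ± 0.23 (0.0779). vam6 showed the same shape, with its junction of exons 4 and 5 at -1.04 ± 0.085 and the 3 before it between 0.0034 and 0.16.

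Probes for junctions that skip an exon were higher in bulk, 152 of 371 (41.0%) against 3 lower (0.809%), with array medians of 0.29, 0.26, 0.23 and 0.21. After centring, 13 were higher and 13 lower, and the fitted medians were 0.24 in S7A, 0.19 in S7E, 0.083 in S2A/S7A and 0.049 in S2A. The S7E median rested on its replicate 1, at 0.41, against 0.025 and 0.018 on the other S7E arrays. A skipping probe of the spliceosome gene cwf10, from exon 1 to exon 3, had 1.31, 1.49, 1.49 and 0.99 (1.32 ± 0.11, adjusted p = 2.46e-06), with all 4 arrays near or above 1. It was -0.91 in S7E, 0.54 in S2A/S7A and 1.20 in S2A, with -1.17, -0.88 and -0.58 on the S7E arrays, and S7A exceeded S7E by 2.23 ± 0.16 (adjusted p = 1.31e-06). In trm13 the probes from exon 1 to exon 3 and from exon 1 to exon 4 were higher by 1.24 ± 0.16 and 1.15 ± 0.19, so that every trm13 junction probe leaving exon 1 was higher. The probe of mpn1 from exon 2 to exon 5 was 1.32 ± 0.15 above its exon, which had fallen. The 3 lower probes were in lig4 (-0.66 ± 0.093), cbp4 (-0.40 ± 0.11) and cdc5 (-0.24 ± 0.078). cbp4 did not pass without replicate 4 (adjusted p = 0.0848). Without replicate 1 or 3 only 2 probes were lower, and without replicate 2 only 1. The lig4 probe had values on 3 of the S7A arrays. The cdc5 probe had -0.067, -0.48, -0.43 and -0.0013, with little drop on replicates 1 and 4. Other skipping probes of cdc5 were at 0.093 ± 0.092 and 0.051 ± 0.077 and did not pass.

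Set against each mutant over all genes, S7A was higher than S7E at 1042 genes (20.2%) and lower at 1175 (22.8%). It was higher than S2A/S7A at 972 (18.8%) and lower at 1174 (22.7%), and higher than S2A at 1036 (20.1%) and lower at 1131 (21.9%). These 3 contrasts share the S7A arrays. S7A and S7E differ in alanine against glutamate at the seventh residue. The genes highest in S7A against S7E were eaf6, dal52 (2.36 ± 0.20), SPCC1529.01 (2.15 ± 0.14) and SPCC569.05c (2.09 ± 0.20). For dal52 and SPCC569.05c this was a deep drop in S7E (-2.62 and -2.65), while S7A was at -0.26 and -0.57. The lowest in S7A against S7E were cmt2 (-3.24 ± 0.16), agl1 (-2.13 ± 0.12), psu2 (-2.03 ± 0.18) and atg43 (-1.91 ± 0.11), each with a fitted value above WT in S7E.

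cmt2 set S7A apart from all 3 other mutants. It had -0.86, -1.01, -0.82 and -0.37 in S7A (-0.76 ± 0.11, adjusted p = 7.5e-05) and was at 2.48 ± 0.13 in S7E, 3.24 ± 0.10 in S2A/S7A and 1.74 ± 0.11 in S2A. S7A was the only strain below WT, and its difference from S2A/S7A was -4.01 ± 0.14 (adjusted p = 6.46e-11). The other genes lowest in S7A against S2A/S7A were str1, fio1 and fip1, and the highest were SPAC11D3.17 (1.74 ± 0.13), ctr4 (1.64 ± 0.26), SPBC36.02c (1.52 ± 0.21) and SPCC61.05 (1.44 ± 0.11). Against S2A, mug62 (-5.42 ± 0.26) and cdd1 (-3.81 ± 0.10) were the lowest in S7A, with S2A itself far above WT (fitted 5.74 and 4.11, with S7A at 0.32 and 0.29). mpn1 was lower in S7A than in S2A (difference -3.56 ± 0.090, adjusted p = 1.19e-12), and was at -1.97 ± 0.075 in S7E, 0.19 ± 0.058 in S2A/S7A and 1.11 ± 0.064 in S2A. The drop of mpn1 was thus shared in direction by S7E, and S7A was lower still (difference -0.48 ± 0.10, adjusted p = 0.00124).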

How the data were processed

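RNA of each mutant and of WT was reverse-transcribed, labelled and hybridised to splicing-sensitive 2-colour arrays, per the labels' protocols. The values used are the authors' deposited log2 ratios, taken as already turned so that arrays with swapped dyes run the same way. Background correction and normalization were not given in the sources used, and the deposited values were not normalized again. Gene names came from the reference table (assembly ASM294v3, used for names and gene order only), which matched 5094 of 5208 IDs. Of 15207 probes, 5097 were in exons, 4885 in introns, 4697 across adjacent exons, 402 across skipped exons and 126 in non-coding RNAs. A gene was the mean of its exon probes, and intron and junction values had it subtracted. Features with at least 2 values in every group were fitted with limma 3.58.1 (R 4.3.3, statmod 1.5.0) on group means plus a dye term over all 16 arrays, with Benjamini-Hochberg adjustment. The test was two-sided. Missing values were left missing.

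S7A was tested against 0 and against each other mutant. The fits were tested on simulated data first. The text draws its names from the 14 highest and 14 lowest genes past the threshold with 1 sign on all 4 arrays, every measured member of 4 lists (iron uptake, hexose transporters, phosphate acquisition, telomere-linked helicases), and up to 4 members past the threshold of each other list with the smallest p. It also draws on the 4 highest and 4 lowest introns, junctions, skipping junctions and genes of each contrast, the 4 non-coding RNAs with the smallest p, and rpb1, and the rule lets a gene be left out of the text. Members named beyond these are further members of a list, given as examples, or are marked as chosen after their values were seen. The members and the 32 lists were chosen with earlier results of these data known. Alternatives were another scaling or centring, no dye term, array weights, a fit of the arrays compared alone, other filters, all probes averaged, a replicate block, and each array left out.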

Additional observations from a re-analysis of the deposited data

Results flagged for a closer look

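In 19 of the named genes, 1 of the 4 S7A arrays lay far from the other 3, by the gap to the nearest array as a share of the range. Chance flags about 1 in 20 groups of values, and 156 genes were named. In 14 of the 19 the distant array was replicate 4.

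Replicate 4 was closer to 0 than the other arrays for several of the largest drops. It was -3.31 for str1 (replicates 1 to 3 at -4.68 to -4.46), -1.53 for str3 (-3.20 to -3.06), -1.70 for fip1 (-2.77 to -2.66), -0.67 for nrg1 (-2.06 to -1.84) and -0.22 for alr2 (-2.02 to -1.88). It was -0.13 for mfm3 (-1.04 to -0.94) and -0.15 for urg1 (-1.642 to -1.496), and slightly above 0 for mfm1, at 0.10 (-0.70 to -0.65), and dal52, at 0.095 (-0.42 to -0.34). Replicate 4 was also closer to 0 for SPAC977.05c, at 0.29 (replicates 1 to 3 at 1.58 to 1.74), and for dak2, at 0.27 (0.70 to 0.77). It was on the other side of 0 for ctr4, at -0.63 (0.80 to 0.98). It was higher than the rest for ght4, at 0.83 (0.077 to 0.20), and for mfm2, at 1.28 (0.16 to 0.35).

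The other 5 distant arrays were replicate 1 of eaf6 at 3.31 (the others 2.76 to 2.80), replicate 2 of SPBC1271.08c at 1.92 (1.67 to 1.69), replicate 2 of rpb8 at -0.40 (-0.15 to -0.12), replicate 1 of mcp60 at 0.29 (0.15 to 0.16) and replicate 2 of uaf2 at -0.51 (-0.29 to -0.27).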

How the results depend on the processing

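The 156 named genes kept their sign under every alternative wherever their call was past the threshold. With arrays scaled to equal spread, 2696 genes passed, and with array weights 3073, against 1785. Array weights also gave 2579 introns (1644), 1660 junctions (607) and 284 skipping junctions (155), and a fit of the S7A arrays alone gave 1210 junctions and 275 skipping junctions. Centring left 26 skipping junctions. With 1 S7A array left out, 340 to 476 junctions and 94 to 136 skipping junctions passed, and 1192 to 1564 genes and 1187 to 1630 introns. The contrasts with single arrays of either strain left out gave 1843 to 2078 calls against S7E, 1772 to 2033 against S2A/S7A and 1814 to 2403 against S2A, alternatives on the other strains' arrays being chosen after seeing the data. Of the named genes, 17, 21, 10 and 21 lost their call without replicates 1, 2, 3 and 4, and 2 gained one without replicate 4. Beyond the construction of an alternative, the cause of these moves was not tested. No source states that same-numbered arrays share more than a replicate number. The deviations of S7A arrays from their group mean correlated at -0.22 to 0.41 with those of same-numbered arrays of the other mutants. With arrays of another number they correlated at -0.51 to 0.45, so these values cannot settle whether arrays were paired. With the replicate number as a block, 1785 genes, 1645 introns, 606 junctions, 152 skipping junctions and 2214, 2145 and 2167 contrast calls against S7E, S2A/S7A and S2A passed, and all 156 named genes had the same call. The number of arrays, probes with missing values and the lack of spot intensities limit how small a change could be seen.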

Other observations

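Genes past the threshold that lay side by side moved together at several places. Counting runs of at least 3 adjacent tested genes past the threshold in 1 direction with log2 values beyond 0.4, S7A had 11 higher and 7 lower runs, described here after the values were seen. Over all genes, 18.0% rose and 16.6% fell, and how many runs these shares alone would give was not tested. Several higher runs were genes already counted at the ends of chromosomes I and II, where copies may share a signal. A lower run was the group from snoZ8 to snoZ3. Of the higher runs, 1 held tgp1 and its neighbours, SPBC1271.08c, SPBC1271.07c, mug96 (0.49) and SPBC1271.05c (0.63). Lower runs were SPAC11D3.10 (-0.76), SPAC11D3.11c (-0.82) and hsp3104 (-1.34), then dre4 (-0.91), tht1 (-1.11) and SPAC13C5.04 (-0.64), and cnp3 (-0.44), abp2 (-0.98) and naa35 (-0.45). dre4 was counted there by its exon probe, while its junction probes averaged 0.091 and -0.15, so its place in the run is uncertain. A higher run held ght1, SPCC1529.01 (0.78) and gcd1 (1.08). tht1 is known for nuclear fusion in mating and cnp3 for the kinetochore. Near the right end of chromosome II a higher run of 8 genes reached from gal10 (0.68) to SPBPB2B2.19c (1.29) and held gal1 (0.40), both gal genes being of galactose use.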
